A study of Mus musculus with 10 samples.

Results

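Ribosome footprints of 10 genes used as markers of apical and basal radial glia were followed in the mouse neocortex from E12.5 to P0. The genes are Pax6, Gli3, Prom1, Fabp7, Hopx, Tnc, Ptprz1, Dbi, Ttyh1 and Mfge8, chosen with earlier results of these data known. Their rows in the footprint count table were found by symbol through the Ensembl identifier, a step that used no measured values. They are 10 of the 22373 genes in the table, and all 10 were among the 13484 genes kept for testing. A gene was kept when its footprints, summed over the 2 libraries of a stage, reached at least 32 in at least 1 stage. Ribo-seq counts mRNA fragments that a bound 80S ribosome shields from nuclease, so a count depends both on how much mRNA there is and on how densely ribosomes occupy it. The 5 groups were neocortex at E12.5, E14, E15.5 and E17, named by days after timed mating, and at P0, the day of birth, with 2 libraries each. The mice of all groups were wild-type CD-1, an outbred strain, with males and females together and no allele or drug that set groups apart, and every lysate was digested with RNAse-T1 and RNAse-A. Each library was a pool of brains, so n = 2 pools stands behind every stage mean.

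Radial glia are the stem cells of the developing neocortex. Apical radial glia have their cell bodies in the ventricular zone, touch the ventricle with an apical process, and divide to renew themselves, to make neurons directly or to make intermediate progenitors. Basal (outer) radial glia have lost the apical contact and are abundant in primates but sparse in mice, and late in development radial glia turn to making astrocytes and other glia. Among the 10 genes, Pax6 and Gli3 encode transcription factors, Prom1 a protein of apical membrane protrusions, Fabp7 and Dbi proteins that bind fatty acids and acyl-CoA, Hopx a small homeodomain protein, Tnc and Ptprz1 a matrix protein and a receptor phosphatase at the cell surface, Ttyh1 a membrane protein and Mfge8 a secreted glycoprotein. Hopx, Tnc and Ptprz1 are widely used as markers of basal radial glia.

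The libraries held between 7544404 counts (P0 replicate 1) and 36129988 counts (E14 replicate 2), of which the 10 genes took 0.259% to 0.476%. The P0 libraries stood apart in their replicate error, because the SD over 4559 well-counted genes of the log2 ratio between the 2 libraries was 0.53 at P0 and 0.13 to 0.22 at the other stages. Neocortical identity was checked with Tbr1, a factor of early-born cortical neurons named here after its values were seen, which had stage means of 87.8 CPM at E12.5, 115 at E14 and 88.4 at P0 (CPM, footprint counts scaled to 1000000 counts of a TMM-adjusted library). Markers of neighbouring tissues were not even over time. The summed level of 6 choroid plexus genes was 285 and 345 CPM at E12.5, 1156 and 1162 at E14 and between 5.33 and 13.9 from E15.5 on, and that of 6 meningeal fibroblast genes was between 61.1 and 101 CPM at E12.5 and E14 and between 2.38 and 6.76 afterwards. All 6 genes of either list were called lower from E14 to E15.5, beside 19.6% of all genes, although none was at 0 in both libraries of a stage. The summed level of 8 ganglionic eminence genes went the other way, from 13.5 and 13.7 CPM at E12.5 to between 102 and 124 from E15.5 on, with Gsx2 at 0 in both E12.5 libraries. Lhx6, named after its values were seen, had stage means of 67.9 CPM at E15.5 and 71.6 at P0. The highest stage means of Gsx2 and Nkx2-1, also named afterwards, were 1.29 and 0.692 CPM, both at P0. Whether the list followed tissue of the eminence or cells that had come from it was not tested. The part of these neighbouring tissues in the values that follow was not tested.

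Promoters are shown for 4 of the 10 genes. Pax6 and Gli3 are the transcription factor genes called lower at every step after E14, and Fabp7 and Tnc are genes called higher from E14 to E15.5. Each window holds the 250 bases before the start site listed first for the gene in RefSeq on GRCm38.p6, which need not be the most upstream. All 10 genes were found in that table. For Pax6, Prom1, Hopx, Tnc and Dbi 2 start sites were listed, and only the first was used. The window of Prom1 lay within the RefSeq bounds of the gene, and that of Ptprz1 partly so. Both are in the motif counts below. Capitals mark matches on either strand to TATAAA (the TATA box), CCAAT (the CCAAT box), GGGCGG (a core bound by Sp1) and TGGGAA (the core bound by RBPJ, the DNA-binding partner of Notch). A match is only a match of letters, and the motifs did not overlap each other in the windows printed.
Pax6 (chr2:105668646-105668895, plus strand): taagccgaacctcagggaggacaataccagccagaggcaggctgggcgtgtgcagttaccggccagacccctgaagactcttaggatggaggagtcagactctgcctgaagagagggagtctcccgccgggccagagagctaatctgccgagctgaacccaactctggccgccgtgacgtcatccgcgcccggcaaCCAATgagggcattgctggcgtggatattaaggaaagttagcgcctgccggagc
Gli3 (chr13:15463473-15463722, plus strand): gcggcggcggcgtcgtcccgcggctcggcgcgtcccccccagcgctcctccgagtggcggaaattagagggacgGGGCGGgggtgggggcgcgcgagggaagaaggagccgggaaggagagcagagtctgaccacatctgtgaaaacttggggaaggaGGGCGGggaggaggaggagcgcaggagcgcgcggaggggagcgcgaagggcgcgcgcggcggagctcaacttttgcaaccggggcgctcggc
Fabp7 (chr10:57784673-57784922, plus strand): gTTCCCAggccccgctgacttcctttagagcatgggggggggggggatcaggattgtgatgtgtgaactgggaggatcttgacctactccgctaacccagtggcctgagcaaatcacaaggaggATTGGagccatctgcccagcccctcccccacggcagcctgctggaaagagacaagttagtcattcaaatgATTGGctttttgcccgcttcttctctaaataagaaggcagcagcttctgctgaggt
Tnc (chr4:64047016-64047265, minus strand): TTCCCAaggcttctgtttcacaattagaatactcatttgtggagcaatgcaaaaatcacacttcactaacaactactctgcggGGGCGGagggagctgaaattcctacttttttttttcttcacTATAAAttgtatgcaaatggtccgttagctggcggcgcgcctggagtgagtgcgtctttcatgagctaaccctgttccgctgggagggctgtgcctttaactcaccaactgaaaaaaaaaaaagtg
GC content was 60.8% for Pax6, 72.8% for Gli3, 54.8% for Fabp7 and 44.8% for Tnc, against a median of 52.4% over all 32851 RefSeq windows of this length. TATAAA was found for 1 of the 10 genes, Tnc, and in 12.4% of all windows. CCAAT was found for 4 (Pax6, Prom1, Fabp7 and Hopx) and in 33.8% of all windows. GGGCGG was found for 6 of the 10 and in 32.7% of all windows, and TGGGAA for 4 (Prom1, Fabp7, Tnc and Mfge8) and in 21.6%.

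The first question was at which step of development the radial glia genes changed. A gene was called when limma-voom gave a Benjamini-Hochberg adjusted p under 0.05 over all 13484 genes and a change of at least 25% (or the matching ratio downward). From E12.5 to E14, limma-voom called 0 of the 10 genes, where 0.497% of all genes were called higher and 0.141% lower. At an unadjusted p under 0.05 there were 5 genes, edgeR called 0, and DESeq2 called 2, namely Prom1 lower (adjusted p = 0.000166) and Dbi higher (adjusted p = 0.0319). Limma-voom called both of them too when both P0 libraries were left out, a fit chosen after seeing the data. Calls rose over all genes as well, to 399 with DESeq2 and 1062 without the P0 libraries, both directions together. The fit of all libraries called 67 higher and 19 lower. From E14 to E15.5, 7 of the 10 were called, with Fabp7, Tnc and Ptprz1 higher and Pax6, Gli3, Prom1 and Ttyh1 lower. Of the 4 steps this had the most calls, and 16.5% of all genes were called higher and 19.6% lower. Their median log2 fold change at this step was -0.33, beside -0.0086 over all genes.

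From E15.5 to E17, Tnc and Ptprz1 were called higher and Pax6 and Gli3 lower, beside 5.61% of all genes called higher and 3.43% lower. All 4 calls were lost on dropping any 1 library of those stages, with adjusted p between 0.0577 and 0.139, and over all genes such fits called only between 0 and 18. With both P0 libraries left out, a fit chosen after seeing the data, 6 of the 10 were called, Fabp7 and Mfge8 being added, both higher. Calls also rose over all genes, to 2810 in both directions together, beside 757 higher and 462 lower in the fit of all libraries. From E17 to P0, 6 genes were called lower, namely Pax6, Gli3, Prom1, Ptprz1, Dbi and Mfge8, and 0 were higher by limma-voom, edgeR, DESeq2 or an unadjusted p under 0.05, beside 9.46% of all genes higher and 11.1% lower. Of the 4 genes not called, Ttyh1 alone had a positive fitted log2 change (0.28 ± 0.39, SE). The 6 calls fell to 2 without E17 replicate 1, to 3 without E17 replicate 2, to 1 (Ptprz1) with sample quality weights and to 0 when only the 4 libraries of the 2 stages were fitted. Over all genes, where the fit of all libraries called 1275 higher and 1492 lower, the same 4 fits called 554, 1197, 698 and 0 in both directions together. Steps that meet at a stage share its 2 libraries.

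Over the whole interval from E12.5 to P0, 8 of the 10 genes were called, 3 higher (Fabp7, Tnc and Ptprz1) and 5 lower (Pax6, Gli3, Prom1, Dbi and Ttyh1). The background was again high, with 30.1% of all genes called higher and 32% lower. The calls fell to 5 with sample quality weights and when only the 4 libraries of these stages were fitted, and the 3 genes lost were Fabp7, Ptprz1 and Dbi in both. Scaling by total counts called 4 higher, Hopx being added, and 4 lower, Dbi being lost. A moderated F test over the 5 stages passed its threshold for 9 of the 10 genes, Hopx being the exception (adjusted p = 0.271 by limma-voom), beside 63.8% of all genes.

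**Figure D1:**
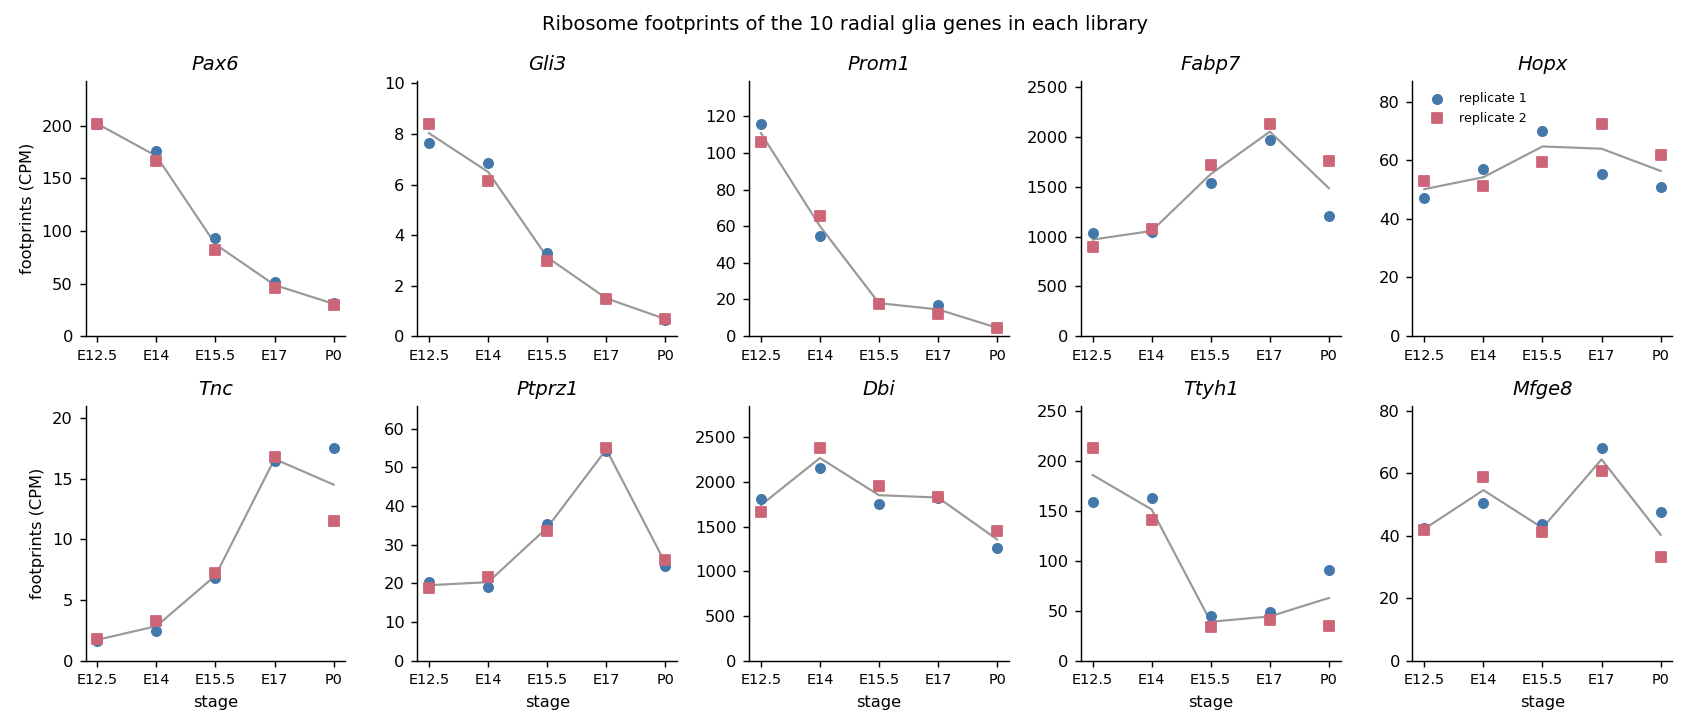
Footprints of each radial glia gene (CPM, linear axis from 0) in the 10 libraries, by stage, with 1 circle or square per replicate and a line through the stage means. Pax6, Gli3 and Prom1 descend stage by stage, Tnc climbs from 1.65 and 1.80 CPM at E12.5 to 16.4 and 16.8 at E17, Ptprz1 and Fabp7 peak at E17, and the 2 P0 libraries lie far apart for Ttyh1, Fabp7 and Tnc.

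**Figure D2:**
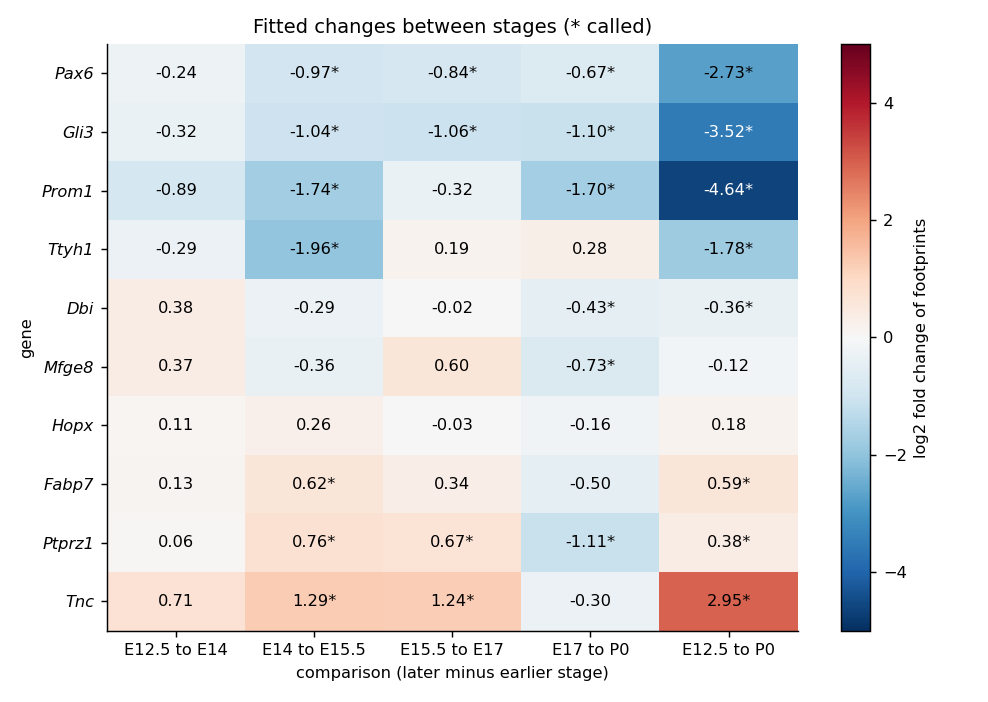
Fitted log2 fold changes of the 10 genes (rows) in the 5 comparisons (columns), later minus earlier stage, with blue for lower and red for higher, and a star where limma-voom called the change. No change is called from E12.5 to E14, and the values from E12.5 to P0 run from -4.64 for Prom1 to 2.95 for Tnc.

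The transcription factor genes came down together. Pax6, a paired-box factor of radial glia needed for normal neurogenesis, stood at 202 and 202 CPM (E12.5), 176 and 167 (E14), 92.9 and 81.7 (E15.5), 51.4 and 45.8 (E17) and 31.8 and 29.5 (P0). Both libraries of each stage lay below both of the stage before. The fitted log2 change was -0.24 ± 0.10 (SE) from E12.5 to E14 (limma-voom adjusted p = 0.301), -0.97 ± 0.10 between E14 and E15.5 (0.000301), -0.84 ± 0.11 between E15.5 and E17 (0.00743) and -0.67 ± 0.11 from E17 to P0 (0.0059). Over the whole interval Pax6 footprints fell 6.62-fold. The last of these steps lost its call without E17 replicate 1 (adjusted p = 0.0645).

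Gli3, which as a repressor of Hedgehog target genes patterns the dorsal telencephalon, was much more sparsely counted, from 225 footprints in E12.5 replicate 2 to 6 in P0 replicate 1. Its level was 7.65 and 8.41 CPM (E12.5), 6.85 and 6.15 (E14), 3.28 and 2.96 (E15.5), 1.52 and 1.46 (E17) and 0.653 and 0.692 (P0). As for Pax6, no library of a stage reached the level of the stage before. The fitted change was -0.32 ± 0.12 (SE, log2) at the first step (limma-voom adjusted p = 0.241) and was called at the next 3, at -1.04 ± 0.13 (0.000597), -1.06 ± 0.16 (0.0114) and -1.10 ± 0.23 (0.0138). Over the whole interval Gli3 fell 11.5-fold. From E17 to P0 the call was lost without E17 replicate 1, E17 replicate 2 or P0 replicate 2 (adjusted p between 0.0517 and 0.153).

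Prom1, the gene of prominin 1 (CD133), a cholesterol-binding glycoprotein of the apical plasma membrane and its protrusions, fell furthest. Its level was 116 and 106 CPM (E12.5), 54.8 and 65.3 (E14), 18.2 and 17.7 (E15.5), 16.96 and 12.16 (E17) and 4.68 and 4.32 (P0). Again the groups did not overlap at any step, but the fall came in bouts. The fitted log2 change was -0.89 ± 0.15 (SE) from E12.5 to E14 (limma-voom adjusted p = 0.0503), -1.74 ± 0.16 between E14 and E15.5 (0.000173), -0.32 ± 0.17 between E15.5 and E17 (0.28) and -1.70 ± 0.20 from E17 to P0 (0.00203). The total fall was 24.9-fold, and 0.475% of all genes had a lower value from E12.5 to P0. The first step passed the threshold when 1 or the other P0 library was left out (adjusted p = 0.0136 and 0.0143).

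Beside these falls, markers of dividing and intermediate cells moved in the same direction. The summed level of 8 mitosis genes was 687 and 707 CPM at E12.5 and 42.6 and 45.3 at P0, with 8 of 8 called lower at the step to E15.5 and also over the whole interval. That of 6 intermediate progenitor genes was 260 and 315 CPM at E12.5 and 33.8 and 21.7 at P0, with 6 of 6 called lower over the whole interval. The 8 neuronal genes were all called higher from E12.5 to P0, and their summed level was 2326 and 2264 CPM at E12.5 and 8390 and 9654 at P0. Over all genes, 30.1% were called higher and 32% lower from E12.5 to P0, and 19.6% lower from E14 to E15.5. In bulk tissue, fewer cells of a type and fewer footprints per cell cannot be told apart.

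Ttyh1, the gene of tweety homologue 1, a membrane protein of neural stem cells and glia, dropped at a single step. It stood at 160 and 213 CPM (E12.5), 163 and 141 (E14), 44.7 and 33.4 (E15.5), 48.4 and 40.4 (E17) and 90.8 and 35.1 (P0). The 4 libraries up to E14 all lay above the 6 later ones, while the 2 P0 libraries bracketed those of E15.5 replicate 1 and of E17. The change from E14 to E15.5 was -1.96 ± 0.37 (SE, log2, limma-voom adjusted p = 0.0046), a 3.90-fold fall, and only 3.98% of all genes had a lower value at that step. The value from E17 to P0 rested on 1 library, at 1.04 without P0 replicate 2 (adjusted p = 0.0123) and at -0.34 without P0 replicate 1 (adjusted p = 0.283). The change from E12.5 to P0 was -1.78 ± 0.38 (adjusted p = 0.0034), between -2.40 without P0 replicate 1 and -1.03 without P0 replicate 2.

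Tnc and Ptprz1, the genes of a matrix protein and of a receptor at the cell surface, were called higher at both steps between E14 and E17. Tnc encodes tenascin C, a large extracellular matrix glycoprotein of the stem cell niche, and was counted at only 30 and 48 footprints in the E12.5 libraries. Its level was 1.65 and 1.80 CPM (E12.5), 2.43 and 3.26 (E14), 6.81 and 7.22 (E15.5), 16.4 and 16.8 (E17) and 17.5 and 11.5 (P0). The stages did not overlap up to E17, and the P0 libraries lay on either side of those of E17. The fitted log2 change was 0.71 ± 0.29 (SE) from E12.5 to E14 (limma-voom adjusted p = 0.28), 1.29 ± 0.23 between E14 and E15.5 (0.00334) and 1.24 ± 0.19 between E15.5 and E17 (0.0116). Tnc rose 7.72-fold from E12.5 to P0. The value from E17 to P0, -0.30 ± 0.19 (adjusted p = 0.284), became -0.53 and a call without P0 replicate 1 (adjusted p = 0.0134) and 0.079 without P0 replicate 2.

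Ptprz1, which encodes a receptor-type tyrosine phosphatase that binds tenascins, pleiotrophin and midkine, rose and then came back. Its level was 20.4 and 18.7 CPM (E12.5), 19.0 and 21.7 (E14), 35.3 and 33.5 (E15.5), 54.3 and 55.0 (E17) and 24.4 and 26.1 (P0). The E12.5 and E14 libraries overlapped, and every other pair of adjacent stages was separate. The change was 0.76 ± 0.11 (SE, log2) between E14 and E15.5 (limma-voom adjusted p = 0.00101), 0.67 ± 0.10 between E15.5 and E17 (0.0116) and -1.11 ± 0.11 from E17 to P0 (0.00106). P0 stayed above E12.5 by 0.38 ± 0.11 (adjusted p = 0.0157), a call lost without E12.5 replicate 2 or P0 replicate 2 (0.104 and 0.0576).

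Hopx encodes a small homeodomain protein that does not itself bind DNA, and it varied least of the 10. Its level was 47.3 and 53.1 CPM (E12.5), 57.2 and 51.3 (E14), 70.0 and 59.5 (E15.5), 55.4 and 72.6 (E17) and 50.9 and 61.9 (P0). Libraries of adjacent stages overlapped at every step but E14 to E15.5, and the highest stage mean was 1.29 times the lowest. From E12.5 to P0 the fitted log2 change was 0.18 ± 0.17 (SE, limma-voom adjusted p = 0.382). Under scaling by total counts alone, under which the median change of all genes was 0.51 (log2) in that comparison, Hopx was called higher at 0.71 (adjusted p = 0.00466). From E14 to E15.5 the same scaling gave a median of 0.29 over all genes and 0.55 for Hopx (adjusted p = 0.0221), against 0.26 ± 0.16 under TMM scaling (adjusted p = 0.26).

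**Figure D3:**
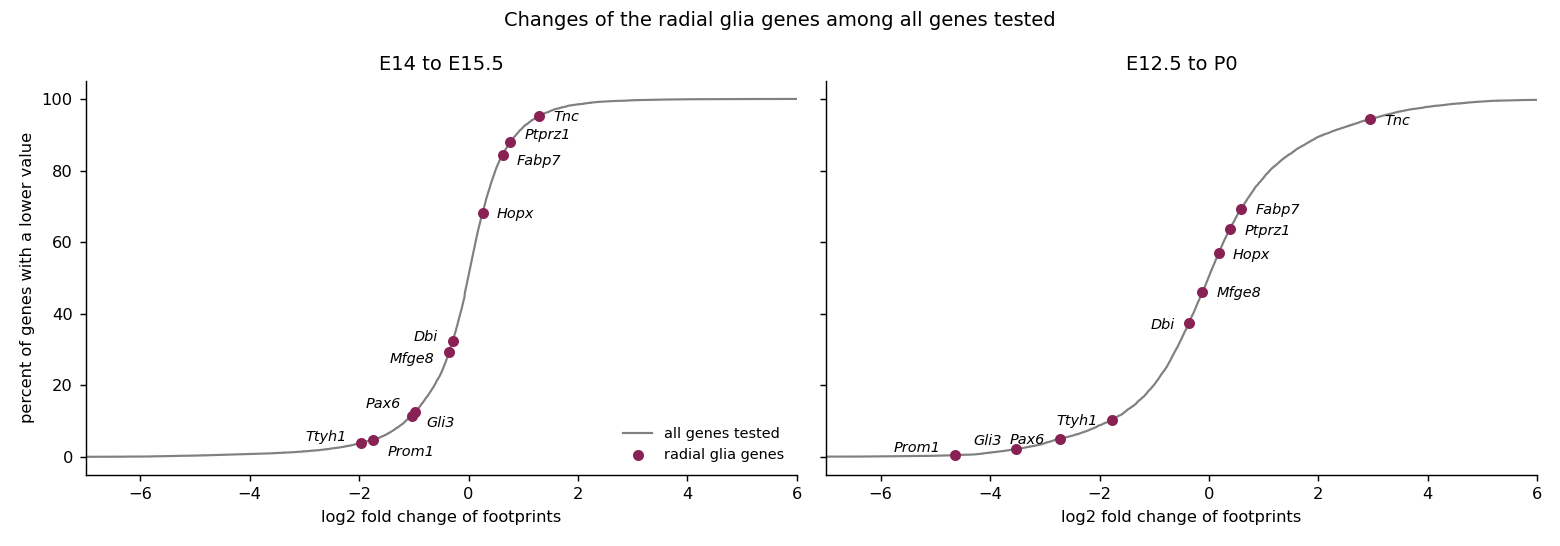
Share of all 13484 genes with a lower log2 fold change (vertical axis, percent) against the log2 fold change (horizontal axis), in the left panel for E14 to E15.5 and in the right panel for E12.5 to P0, with the 10 radial glia genes as points on the curve of all genes. Prom1, Gli3 and Pax6 sit at the lower end (0.475%, 2.22% and 4.98% of genes below them from E12.5 to P0), Tnc sits at 94.4%, and Hopx, Dbi and Mfge8 lie near the middle.

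The lipid-binding genes were the most heavily counted of the 10. Fabp7, the brain fatty acid-binding protein of radial glia and astrocytes, stood at 1039 and 899 CPM (E12.5), 1042 and 1071 (E14), 1535 and 1722 (E15.5), 1972 and 2136 (E17) and 1208 and 1764 (P0). All libraries from E15.5 on lay above all earlier ones with the P0 libraries wide apart. The change from E14 to E15.5 was 0.62 ± 0.17 (SE, log2, limma-voom adjusted p = 0.0227), and the call was lost without any 1 of those 4 libraries (adjusted p between 0.067 and 0.13). From E12.5 to P0 the change was 0.59 ± 0.17 (adjusted p = 0.0163), with 0.48 without E12.5 replicate 2 (adjusted p = 0.0974) and 0.32 without P0 replicate 2, under the limit on size. From E17 to P0 it was -0.50 ± 0.17 (adjusted p = 0.0759), called only without P0 replicate 2, at -0.76 (0.00256).

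Dbi encodes the acyl-CoA-binding protein, also named diazepam binding inhibitor, and peaked early. Its level was 1814 and 1668 CPM (E12.5), 2159 and 2380 (E14), 1751 and 1956 (E15.5), 1820 and 1835 (E17) and 1260 and 1456 (P0). The E14 libraries were above and the P0 libraries below all others. The fall from E17 to P0 was 0.43 ± 0.11 on the log2 scale (SE, limma-voom adjusted p = 0.0293), and that from E12.5 to P0 was 0.36 ± 0.11 (adjusted p = 0.0201). Leaving out either library of E15.5 or of E17 ended the first call (adjusted p between 0.0535 and 0.149), and leaving out E12.5 replicate 1 or P0 replicate 1 ended the second (0.113 and 0.0525). Under scaling by total counts the change from E12.5 to P0 was 0.17 with no call. Dbi has processed copies in the mouse genome and reads that match several places were kept by the authors, so reads from such copies could add to its counts, which was not tested.

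Mfge8, the secreted glycoprotein lactadherin that bridges phosphatidylserine and integrins, had 2 small maxima in its stage means, at E14 and E17. Its level was 42.4 and 41.9 CPM (E12.5), 50.5 and 58.6 (E14), 43.8 and 41.2 (E15.5), 68.0 and 60.8 (E17) and 47.5 and 33.0 (P0). The E17 libraries lay above all others. The changes into and out of E14, 0.37 ± 0.17 and -0.36 ± 0.16 (SE, log2), were not called in the fit of all libraries (limma-voom adjusted p = 0.327 and 0.124). The change was 0.60 ± 0.16 (SE, log2) from E15.5 to E17 (limma-voom adjusted p = 0.0589), which was called with 1 or the other P0 library left out (adjusted p = 0.00478 and 0.00507) and by DESeq2 (0.0236). From E17 to P0 Mfge8 fell by 0.73 ± 0.17 (adjusted p = 0.0189), a call lost on leaving out 1 or the other E17 library (0.138 and 0.0612).

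Because the 10 genes were counted in the same libraries, their ratios within a library do not depend on how libraries are scaled. Pax6 had 26.4 and 24.0 times the footprints of Gli3 at E12.5 and 48.7 and 42.7 times at P0, so the pair drew apart by 1.81-fold. The ratio of Prom1 to Pax6 footprints was 0.575 and 0.523 at E12.5, 0.196 and 0.217 at E15.5, 0.330 and 0.266 at E17, and 0.147 and 0.146 at P0. Both E17 libraries thus lay above both E15.5 libraries, against the downward course of the ratio at the other steps. The ratio of Tnc to Ptprz1 was 0.0811 and 0.0960 (E12.5), 0.128 and 0.151 (E14), 0.193 and 0.215 (E15.5), 0.302 and 0.306 (E17) and 0.719 and 0.441 (P0). It went up at every step with no overlap between stages, through the step at which Ptprz1 itself fell. The ratio of Fabp7 to Dbi was 0.573 and 0.539 (E12.5), 0.482 and 0.450 (E14), 0.876 and 0.880 (E15.5), 1.08 and 1.16 (E17) and 0.959 and 1.21 (P0), with all libraries from E15.5 on above all earlier ones. Between Tnc and Pax6 the ratio shifted by 54.4-fold from E12.5 to P0. These ratios were not tested, and they describe changes in time, since transcript lengths were not taken into account.

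**Figure D4:**
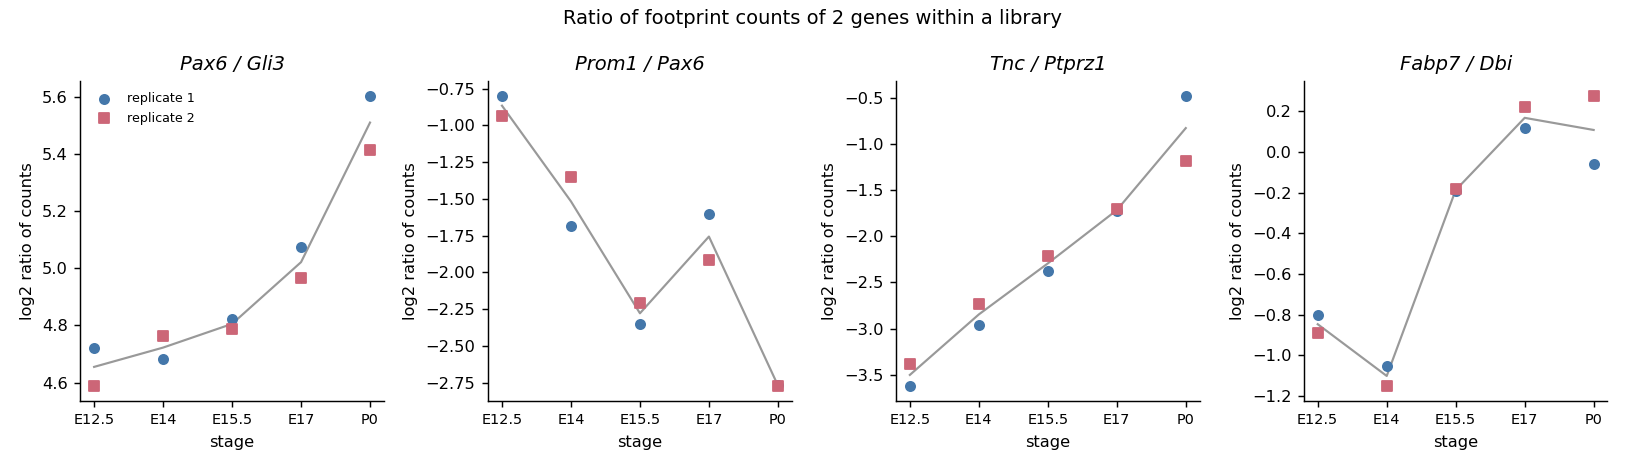
Log2 ratio of the footprint counts of 2 radial glia genes within each library, by stage, with 1 circle or square per replicate and a line through the stage means. Pax6 over Gli3 and Tnc over Ptprz1 climb, with a gap between the P0 replicates for Tnc over Ptprz1 (0.719 and 0.441 before the logarithm), and Prom1 over Pax6 falls with an interruption at E17.

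Likeness of pattern was measured as the root mean square difference, over the 10 libraries, of log2 CPM centred on each gene's mean, with 0.5 added to every count. It is given to the 9205 other genes that averaged 100 counts or more. Within the radial glia genes, Fabp7 and Ptprz1 were closest at 0.24, and Pax6 and Gli3 at 0.29 were about as far apart as Dbi and Mfge8 at 0.29. Outside them, the nearest gene to Pax6 was Nr2e1 (0.085), the nuclear receptor Tlx of neural stem cells, and the nearest to Gli3 was Cdca7 (0.093). For Prom1 the nearest was Mdk (0.22), the growth factor midkine, and for Ttyh1 it was Lfng (0.19), a glycosyltransferase that modifies Notch. For Tnc the nearest gene was Lingo1 (0.19), for Ptprz1 Rnf24 (0.12), for Fabp7 Rab2a (0.10), for Dbi Cox17 (0.080), for Hopx Mocs2 (0.094) and for Mfge8 Nfasc (0.091). Genes that change little, such as Hopx, are near to many genes on this measure, and the median distance to these genes was 0.39 for Hopx and 1.63 for Prom1.

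Other radial glia genes were compared from lists that hold none of the 10. Of 12 apical or general radial glia genes, 11 were called lower from E14 to E15.5 and 11 over the whole interval, with medians of -1.22 and -2.22 (log2) beside -0.0086 and -0.013 over all genes. The exception at both was Slc1a3, the glutamate transporter GLAST kept on in astrocytes, whose stage means were 27.8 CPM at E14 and 25.2 at E15.5 with no call, and which rose over the whole interval, 27.9 to 45.0 CPM (limma-voom adjusted p = 0.00111). Among those that averaged 100 counts or more, the largest fitted fall was that of Id4, an inhibitor of DNA binding, from 232 to 24.7 CPM (adjusted p = 1.39e-05). The summed level of the 12 genes was 1385 and 1548 CPM at E12.5 and 313 and 268 at P0. The sum came down as Pax6, Gli3 and Prom1 did and not as Fabp7, Tnc or Ptprz1. A large part of it was Vim, named after its values were seen, with stage means of 724 CPM at E12.5 and 96.2 at P0. From E17 to P0, 5 of the 12 were called lower and 7 were not called, with a median of -0.20 (log2). Over all genes, 19.6% were called lower from E14 to E15.5, 11.1% from E17 to P0 and 32% over the whole interval.

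Of 8 further basal radial glia genes, 7 were tested (Moxd1 was under the filter). From E14 to E15.5, 1 was called higher and 4 lower, beside 16.5% and 19.6% of all genes. From E15.5 to E17, 2 were called higher and 0 lower, with a median of 0.65 (log2), beside 5.61% and 3.43% of all genes. Their summed level was 311 and 334 CPM at E15.5 and 651 and 606 at E17. Most of it came from Ptn, with stage means of 296 and 594 CPM. From E12.5 to P0, 3 were called higher and 2 lower, with a median of -0.083, beside 30.1% and 32% of all genes. Acsbg1, an acyl-CoA synthetase, had the largest rise, from 1.79 to 7.99 CPM (limma-voom adjusted p = 1.27e-05), and Il6st, the gp130 receptor subunit, the largest fall, from 32.8 to 12.6 CPM (adjusted p = 0.000594). From E12.5 to P0 the remaining calls were Fam107a and Ptn higher and Stat3 lower, which are named because they complete the count.

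Among genes of the pathways in which the 10 act, the Hedgehog list is the one that goes with Gli3. Of 11 genes, 7 passed the filter and were tested. Of the 7, 6 were called lower from E14 to E15.5, 1 from E15.5 to E17, 3 from E17 to P0 and 6 over the whole interval. Of all genes, 19.6%, 3.43%, 11.1% and 32% were called lower in these comparisons. Cdon, a co-receptor for Hedgehog ligands, fell from 42.9 to 1.16 CPM (limma-voom adjusted p = 3.04e-06). Gli2, the paralogue that mostly activates Hedgehog targets, fell from 16.1 to 1.19 CPM (adjusted p = 6.88e-05). The gene called higher was Ptch1, the Hedgehog receptor and a target of the pathway, from 0.916 to 2.22 CPM (adjusted p = 0.0257), and it is named after its value was seen.

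Of 7 genes whose proteins bind Ptprz1 or act with it, 3 were called higher and 1 lower from E14 to E15.5, 5 higher and 0 lower from E15.5 to E17, and 0 higher and 4 lower from E17 to P0. Limma-voom called 5 higher and 1 lower from E12.5 to P0. The shares of all genes called higher and lower at these 3 steps were 16.5% and 19.6%, 5.61% and 3.43%, and 9.46% and 11.1%. From E12.5 to P0 they were 30.1% and 32%. Cntn1, contactin 1, a neuronal adhesion molecule bound by Ptprz1, rose from 2.07 to 20.4 CPM (adjusted p = 2.25e-06), and Mdk fell from 828 to 46.7 CPM (adjusted p = 1.26e-06). Of 6 matrix genes related to tenascin C or its partners, 5 were tested, and from E12.5 to P0 2 were called higher and 2 lower. Ncan, the proteoglycan neurocan, rose from 15.1 to 31.9 CPM (adjusted p = 0.00365), and Vcan, versican, fell from 54.2 to 23.8 CPM (adjusted p = 9.14e-05).

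Of 11 paralogues of the 10 genes, 8 were tested. From E12.5 to P0, 4 were called higher and 3 lower, beside 30.1% and 32% of all genes. Fabp3, the heart-type fatty acid-binding protein, rose from 1.12 to 86.0 CPM (limma-voom adjusted p = 8.48e-07), a log2 change of 6.34 beside 0.59 for Fabp7. Reads shared between paralogues could move counts between them, and how the deposited table divides such reads is not stated.

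Radial glia genes are also used by astrocytes, so glial markers are given beside them. Of 10 astrocyte genes, 6 were called higher and 3 lower from E12.5 to P0, with Aldh1l1, a folate enzyme, going from 0.839 to 30.5 CPM (limma-voom adjusted p = 2.91e-06) and Gja1, connexin 43, which radial glia also express, from 38.7 to 1.91 CPM (adjusted p = 7.39e-07). Their summed level was between 415 and 457 CPM at E12.5 and E14, 225 and 212 at E15.5, 274 and 295 at E17, and 482 and 449 at P0, and it was lowest at E15.5. Aldh1l1 did not share that low, as its stage mean was 1.02 CPM at E14 and 12.3 at E15.5 (adjusted p = 8.24e-05). Most of the sum came from Aldoc and Apoe, named after their values were seen. Their stage means were 213 and 191 CPM at E14 and 128 and 60.7 at E15.5, and Aldoc was lowest at E17 (98.0). Of the 10 genes, 5 were called lower and 1 higher from E14 to E15.5, beside 19.6% and 16.5% of all genes. S100b was at 0 in both E12.5 libraries. Of 8 oligodendrocyte lineage genes, 6 were tested and 5 were called higher from E12.5 to P0. Their summed level went from 30.5 and 32.9 CPM to 142 and 112. Over all genes, 30.1% were called higher and 32% lower in that comparison. The part of these cells in the rise of Tnc, Ptprz1 and Fabp7 was not tested.

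**Figure D5:**
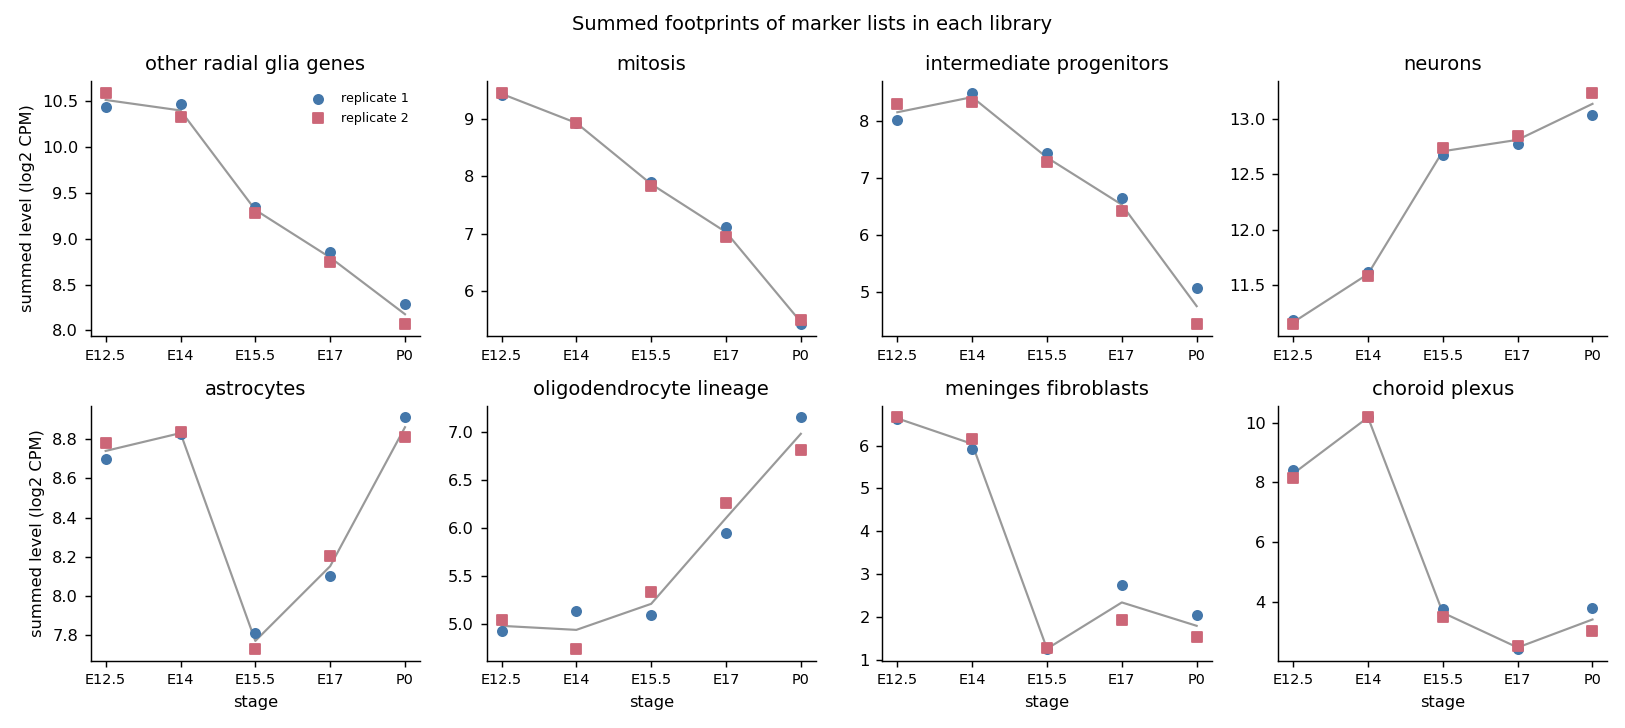
Summed footprints (log2 CPM) of 8 marker lists in the 10 libraries, by stage, with 1 circle or square per replicate and a line through the stage means. Other radial glia and mitosis genes descend, intermediate progenitor genes descend from E14 on (260 and 315 CPM at E12.5, 364 and 326 at E14), neuronal and oligodendrocyte lineage genes climb, astrocyte genes dip at E15.5, and meningeal and choroid plexus genes drop between E14 and E15.5.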

How the data were processed

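Ribo-seq libraries of mouse neocortex were taken as the authors deposited them, in a table of whole-number footprint counts per gene with 1 column for each of 10 libraries. The study describes trimming adapters and collapsing duplicates. Reads from tRNA, rRNA and snoRNA were removed, and the rest were aligned with STAR (2.7.0 in the submitters' processing notes) to GENCODE coding transcripts and the genome, with multi-mapping reads kept. The study names DeepShape-prime for isoform abundance and tximport for gene-level counts. Whether the deposited table comes from that route, and how it divides shared reads, is not stated. Of 22373 identifiers, 22274 matched a symbol. Names and coordinates come from RefSeq (GRCm38.p6) and the table of counts names no build.

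Counts were analysed in R 4.3.3 with TMM library sizes (edgeR 4.0.16) and limma-voom (limma 3.58.1), the method that the study names, in 1 fit of all 10 libraries with a coefficient for each stage. Genes with at least 32 footprints in a stage were kept. P-values were two-sided, with Benjamini-Hochberg adjustment over 13484 genes. A moderated F test covered the contrasts against E12.5. P-values measure the spread between pools of brains, taken as 1 residual variance per gene shared by all stages. The replicate spread was not equal, with an SD of the log2 ratio of 0.53 at P0 and 0.13 to 0.22 at the other stages. The p-values can therefore be too small for comparisons with P0 and too large for the others. Stages share replicate numbers, but same-numbered libraries did not deviate in a consistent direction. Correlations of the replicate difference between stages had both signs, from -0.63 to 0.43 over 4559 genes. Alternatives were other scalings, filters, quality weights, edgeR's quasi-likelihood test, DESeq2 1.42.0, fits of 2 stages, a replicate block and each library left out. The fit without the P0 libraries was chosen after seeing the data. The code was tested on simulated counts.

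All 10 radial glia genes are reported. Of each other list, the called genes with the largest rise and fall from E12.5 to P0 are named if their mean count was at least 100, and genes named outside that rule are marked. The nearest genes by likeness are named under the same minimum. The 10 genes and the lists were chosen with earlier results of these data known, so they are no independent support for patterns in them. RNA levels and protein were not used here, and some items are not reported here.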

Additional observations from a re-analysis of the deposited data

How the results depend on the processing

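Of 1030 alternative values of the 50 fitted changes (10 genes in 5 comparisons), 928 kept their direction and side of the threshold, 54 lost a call, 33 gained one and 15 changed sign. Pax6, Gli3, Prom1, Tnc and Ttyh1 were called from E12.5 to P0, and these 5 and Ptprz1 from E14 to E15.5, under every alternative that gave a value. From E12.5 to E14 the count of 0 became 1 with DESeq2 size factors, 1 with quality weights, 1 with a filter of 1 CPM in 2 libraries, 2 with DESeq2 and 2 without both P0 libraries, and leaving out single libraries gave 0 to 2. From E15.5 to E17 (4 genes) leaving out single libraries gave 0 to 6, and from E17 to P0 (6 genes) it gave 2 to 7, quality weights 1 and the fit of 2 stages 0. From E12.5 to P0 (8 genes) quality weights and the fit of 2 stages gave 5. Fitting a replicate block called 0, 7, 4, 6 and 8 genes in the 5 comparisons and 9 across stages, as without the replicate block. The cause of these changes was not tested, but leaving out a library of a pair leaves 1 for that stage.

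Changes of sign were mostly small values of changes that were not called. Above the limit on size were Mfge8 at 0.40 (E12.5 to P0, total counts) and Ttyh1 at -0.34 (E17 to P0, without P0 replicate 1). Scaling by total counts gave Dbi 0.0029 (E14 to E15.5), 0.043 (E15.5 to E17) and 0.17 (E12.5 to P0), Hopx 0.032 (E15.5 to E17) and Mfge8 0.40 (E12.5 to P0), and only Dbi from E12.5 to P0 had been called. Leaving out single libraries gave Ptprz1 -0.039 to 0.15 (E12.5 to E14), Hopx -0.22 to 0.17 and Dbi -0.098 to 0.055 (both E15.5 to E17), Ttyh1 -0.022 to 0.41 (E15.5 to E17) and -0.34 to 1.04 (E17 to P0), Hopx -0.36 to 0.032 and Tnc -0.53 to 0.079 (both E17 to P0) and Mfge8 -0.35 to 0.17 (E12.5 to P0). Levels per transcript length were planned but not run, since no lengths were used here. Depth limits Gli3 most, with 6 footprints in P0 replicate 1.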
